A study of Arabidopsis thaliana with 2 samples.

Results

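The genes LHW, PHV, CLE41, CLE44, GUT2, HCT and CCR2, which act in vascular development and in the walls of vascular cells, were read in Arabidopsis thaliana shoots grown with an inhibitor of auxin transport. They are 7 of 13356 genes named on the array, were taken by symbol from the array's probe-to-gene annotation, and were each read by the only probe set that names that gene alone. Plants of the NPA group grew with the polar auxin transport inhibitor NPA (N-1-naphthylphthalamic acid), dissolved in dimethyl sulfoxide (DMSO), in their medium. Those of the DMSO group received the solvent alone in an equal amount. Both groups were of ecotype Col-0 at developmental stage 1.04, with about 6 rosette leaves at about 2 weeks, grown near 20 C in days of 16 h light, following cold treatment of the seeds for 2 days or more. The NPA concentration is 10 uM in the treated sample's own notes and 10 mM in the growth protocol that both samples carry, so the dose is uncertain. RNA of whole shoots was hybridised to 1 Affymetrix ATH1 array per group, and the number of plants behind an array is not given in the sources used here. With 1 array per group there is no spread between replicates, no test was run, and none of the differences below was checked in a second array.

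Veins form from procambium, a stem cell tissue that gives rise to xylem and phloem and whose course through the leaf follows the flow of auxin. The bHLH transcription factor LHW acts with partners of the TMO5 group to drive the divisions that widen the vascular bundle, and the HD-ZIP III factor PHV acts in vascular patterning and in the upper side of the leaf. CLE41 and CLE44 encode the same secreted peptide, TDIF, which is made in the phloem and binds the receptor kinase PXY on procambium cells, where it keeps them dividing and delays their turn to xylem. Xylem cells then lay down a secondary wall of cellulose, xylan and lignin. GUT2, also known as IRX10, is needed to build the xylan backbone, HCT acts midway in the synthesis of lignin monomers, and CCR2 is a cinnamoyl-CoA reductase of the same pathway whose paralog CCR1 has the larger part in developmental lignin. The series title names vascular overgrowth under NPA, and the comparison of NPA with DMSO asks how these transcripts stood in such shoots.

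With the floor described below, none of the 7 genes reached a 2-fold difference between the arrays, though for CCR2 only a lower bound could be given. The 4 genes of procambium and patterning all had a higher signal with NPA, by 1.63-fold for LHW, 1.51-fold for PHV, 1.32-fold for CLE44 and 1.12-fold for CLE41. The 3 wall genes went different ways. GUT2 was 1.09-fold higher with NPA, HCT was 1.39-fold lower, and CCR2 was above the floor of the array with NPA alone, which gives a bound of at least 1.08-fold higher. The count of 0 genes at least 2-fold higher stands beside 3.75% of all measured genes, and the count of 0 at least 2-fold lower beside 2.13%.

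Values are array signal intensities on a linear scale, and the floor, below which a signal was not read, was the 40th percentile of each array, 27.9 with NPA and 28.3 with DMSO. A gene counted as measured when its signal passed the floor on either array, which held for 7753 of the named genes and for all 7 of the genes described here. Signals of different probe sets were not set against each other, since each probe set binds its target with its own strength. The log2 ratio is that of NPA over DMSO throughout. In RNA from whole shoots, fewer cells of a type and less of a transcript per cell cannot be told apart.

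LHW had a signal of 103 with NPA and 62.9 with DMSO. Its log2 ratio was 0.71, the highest of the 6 genes above the floor on both arrays. Of all measured genes 8.09% had a ratio at least as high. PHV had 135 with NPA and 89.4 with DMSO, a log2 ratio of 0.59 that 11.0% of measured genes reached or passed. Both transcription factor genes were more than 2 times above the floor on both arrays, the least being LHW with DMSO at 2.22 times. The ratios still moved with the use of the floor. When it was added to both signals, the log2 ratios were 0.52 for LHW and 0.47 for PHV. At a looser rule of 1.5-fold these were the 2 genes counted as higher and 0 were counted as lower, against 11.2% and 10.6% of all measured genes. PHV passed that rule by little, at 1.51-fold.

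The ligand genes were nearer to no difference. CLE44 had a signal of 94.2 with NPA and 71.2 with DMSO, a log2 ratio of 0.40, and CLE41 had 169.9 with NPA and 151 with DMSO, a log2 ratio of 0.17. A ratio at least as high was found for 18.7% of measured genes in the case of CLE44 and for 33.5% in the case of CLE41. The log2 ratios of these 2 genes, whose mature peptide is the same, lay 0.24 apart. Among 52 genes read by 2 or more probe sets above the floor on both arrays, the log2 ratios within a gene differed by up to 0.25 at the median and 0.66 at the 90th percentile. The gap between CLE44 and CLE41 was thus no wider than the usual gap between probe sets of 1 transcript, and the gap of 0.54 between LHW and CLE41 was also under that 90th percentile.

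**Figure D1:**
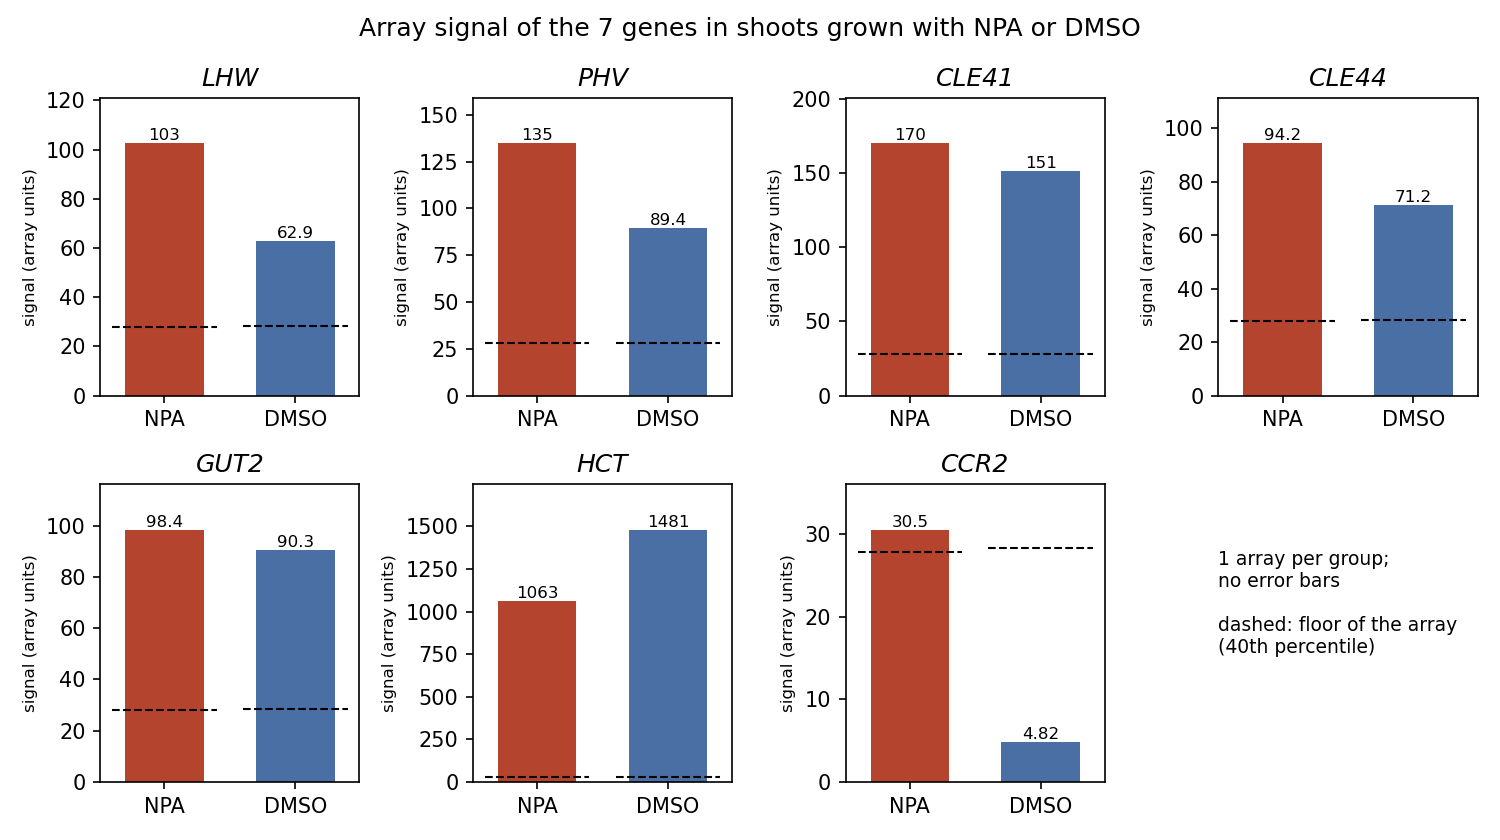
Array signal (linear array units, bars from 0, a separate scale in each panel) of each of the 7 genes with NPA (left bar) and DMSO (right bar), with 1 array per group and no error bars; dashed lines mark the floors of 27.9 with NPA and 28.3 with DMSO. The NPA bar is the higher in LHW, PHV, CLE41, CLE44, GUT2 and CCR2 and the lower in HCT, and the DMSO bar of CCR2, at 4.82, lies under its floor.

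GUT2, the xylan synthesis gene, had a signal of 98.4 with NPA and 90.3 with DMSO. Its log2 ratio of 0.12 was reached or passed by 36.7% of measured genes. Its closest relative, GUT1, had 149 with NPA and 143 with DMSO, a log2 ratio of 0.06. The ratios of the pair lay 0.06 apart, within the 0.25 typical of probe sets of 1 gene. Both members of the pair therefore stood close to equal on the 2 arrays.

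HCT was the only one of the 7 with a lower signal in NPA shoots, at 1063 with NPA and 1481 with DMSO. Its log2 ratio was -0.48, and 15.3% of measured genes had a ratio as low or lower. Other bright probe sets also ran lower with NPA. The 500 probe sets nearest to HCT in mean signal had a median log2 ratio of -0.32, which leaves -0.16 for HCT minus that median, and after lowess centring, which removes the trend of the ratio with brightness, its log2 ratio was -0.25. For LHW, PHV, CLE41, CLE44 and GUT2 the same local median lay between 0.03 and 0.06, and their log2 ratios minus it were 0.65, 0.54, 0.14, 0.36 and 0.08. The part of brightness in the HCT value was not tested.

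CCR2 had a signal of 30.5 with NPA, just above the floor of 27.9, and 4.82 with DMSO, well under the floor of 28.3. The bound of at least 1.08-fold follows from the floor and not from the signal of 4.82. Bacterial control probe sets that had not been spiked, of which there were 27, read at most 10.9 on the NPA array and 15.7 on the DMSO array. The CCR2 signal with NPA was thus above all 27 of them, and with DMSO it lay inside their range. With each array's floor set to its highest bacterial control, an alternative chosen after seeing the data, the log2 bound for CCR2 was 0.96. It was 1.12, past 2-fold, when the 25th percentile served as floor. When the 55th percentile did, CCR2 was not measured on either array. Its transcript was readable in NPA shoots only by a small margin, and the size of its difference was set by the choice of floor.

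**Figure D2:**
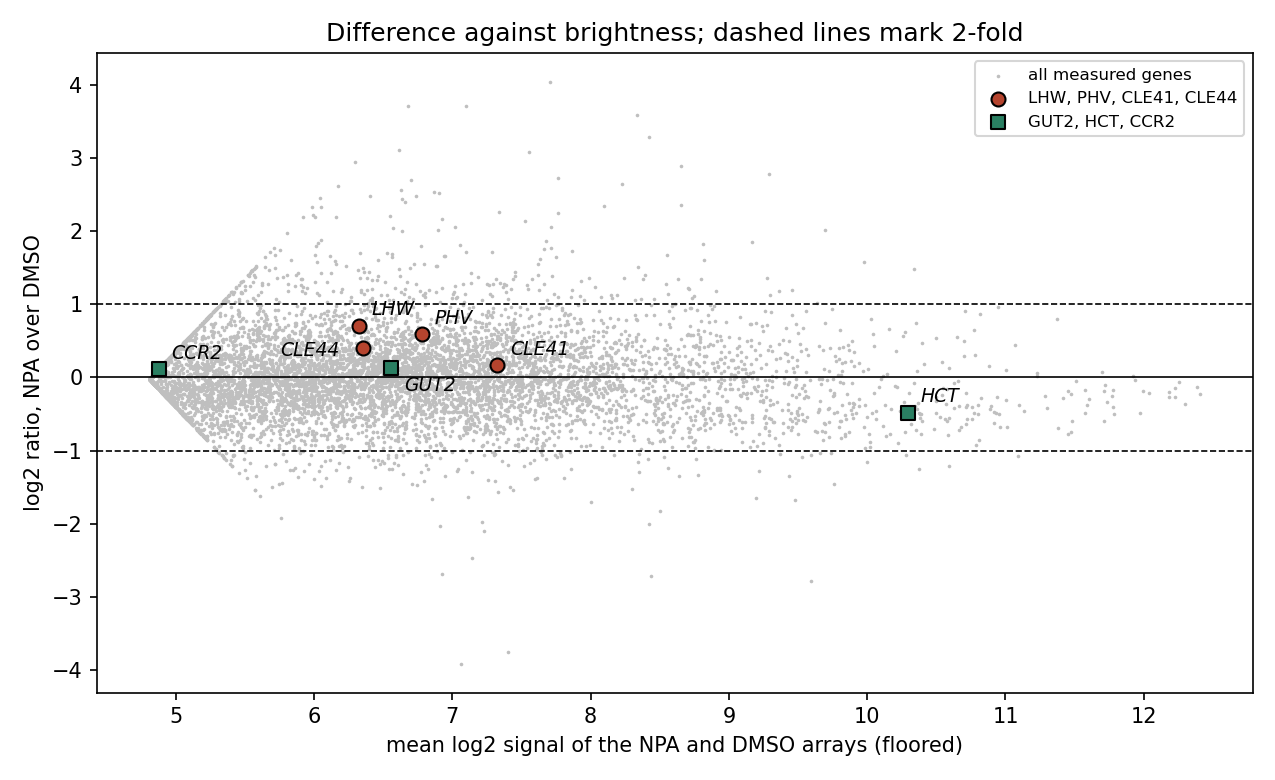
Log2 ratio of NPA over DMSO (vertical axis) against the mean log2 signal of both arrays after flooring (horizontal axis) for 7753 measured genes (grey) and the 7 genes (circles for LHW, PHV, CLE41 and CLE44, squares for GUT2, HCT and CCR2). All 7 points lie between the dashed 2-fold lines, with CCR2 drawn at its lower bound at the dim end and HCT among the bright genes, whose ratios run below 0.

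Of the 6 genes above the floor on both arrays, 5 had a log2 ratio above 0, against 48.1% of all genes above both floors. Their median log2 ratio was 0.29, and that of all such genes was -0.02. The 7 genes were chosen with earlier results of these data known, so both comparisons only describe them and support no shared rise. With CCR2 at its bound of 0.11 the median of the 7 was 0.17, and it was 0.40 with lower floors or none. The middle 50% of measured genes lay between -0.32 and 0.29, a range that held CLE41 and GUT2, while LHW, PHV and CLE44 lay above it and HCT below it. These 6 all lay between the 5th and the 95th percentile, at -0.78 and 0.88, and CCR2 could not be placed, since its value is a bound. The spread of the log2 ratio among the 500 probe sets nearest in signal had an SD of 0.53 around LHW and 0.54 around PHV, against log2 ratios of 0.71 and 0.59. PHV minus its local median was 0.54, no larger than that spread. The log2 ratio of PHV was 0.52 after quantile normalization. When the floor was added to both signals, the log2 ratio was 0.47 for PHV and 0.52 for LHW. The spread was not taken again under these alternatives, so whether these lower ratios fall below it was not tested. CLE44, CLE41, GUT2 and HCT had ratios smaller in size than the same spread, which was 0.54, 0.60, 0.61 and 0.52 for them. This spread is taken across other genes on the same 2 arrays, not between replicates. Hybridisation spike-ins, control transcripts that are added to each labelled sample, ranged from -0.61 to 0.20 over 18 probe sets, and of the 6 genes above the floor on both arrays LHW alone had a ratio larger in size than any spike-in.

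The wider pathway was read through lists of 38 genes of procambium and patterning, 30 of xylan and the secondary wall, 11 of xylem regulation and cell death, 30 of lignin and 19 of phloem. Most of these genes had no single-gene probe set named here, among them the receptor gene PXY, the procambium homeobox gene WOX4, the other HD-ZIP III genes, the secondary wall cellulose synthases and CCR1, which were not analysed here. The lists, like the 7 genes, were chosen with earlier results of these data known, so the signs within them are description only. In the procambium and patterning list 9 genes were named, 7 measured and 0 at 2-fold, with a median log2 ratio of 0.40. Of the 7, 5 were above the floor on both arrays, all 5 with a ratio above 0, and 4 of these are LHW, PHV, CLE41 and CLE44. The other two passed the floor with NPA alone, which fixes the sign of their bounds. Beyond these 4, AT5G09460 had a signal of 152 with NPA and 111 with DMSO, a log2 ratio of 0.45. AT1G08590, listed as PXL1, a receptor kinase gene related to PXY, had 30.9 with NPA and was under the floor with DMSO, which gives at least 1.09-fold. AT5G02460 gave the same bound of at least 1.09-fold, and AT4G28650 and AT5G50010 were under the floor on both arrays.

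The peptide family of CLE41 and CLE44 was read as far as it was named. Of 6 CLE genes named on the array, 3 were measured. CLE26 had a signal of 59.8 with NPA and 60.9 with DMSO, a log2 ratio of -0.03, and CLE21, CLE27 and CLE40 were under the floor on both arrays.

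In the xylan and secondary wall list 3 of 30 genes were measured and 0 were at 2-fold, with a median of 0.12. All 3 had a ratio above 0, though GUT1 was at -0.001 after quantile normalization. IRX15-L, which acts in xylan synthesis like its relative IRX15, had 58.6 with NPA and 39.9 with DMSO, a log2 ratio of 0.55, while IRX15 was under the floor on both arrays. IRX15-L was close to the floor with DMSO, and its ratio was a bound of 0.14 when the 55th percentile served as floor. The list of xylem regulators and cell death had 0 named genes.

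In the lignin list 5 of 30 genes were measured, with a median of 0.11 that is itself the bound of CCR2. Only 2 were above the floor on both arrays, HCT with a ratio below 0 and AT5G64120 with one above it, and CCR2, PRX52 and AT2G41480 passed the floor with NPA alone, which fixes the sign of their bounds. The genes beside HCT and CCR2 were peroxidase genes, whose enzymes can couple lignin monomers in the wall. PRX52 had a signal of 43.2 with NPA and was under the floor with DMSO, at least 1.53-fold higher. AT5G64120, listed as PRX71, had 53.2 with NPA and 35.5 with DMSO, a log2 ratio of 0.58. It was close to the floor with DMSO, and its log2 ratio was 0.35 when the floor was added to both signals. AT2G41480, listed as PRX25, barely passed the floor with NPA and gave at least 1.01-fold, and AT5G66390, listed as PRX72, was under the floor on both arrays. In the phloem list SWEET11, which exports sucrose toward the phloem, was the only measured gene. It had 746 with NPA and 1035 with DMSO, a log2 ratio of -0.47. The 500 probe sets nearest to SWEET11 in signal had a median of -0.24, which leaves -0.23, and after lowess centring its log2 ratio was -0.29. The part of brightness in this value was not tested. OPS, a gene of early phloem cells, was under the floor on both arrays.

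**Figure D3:**
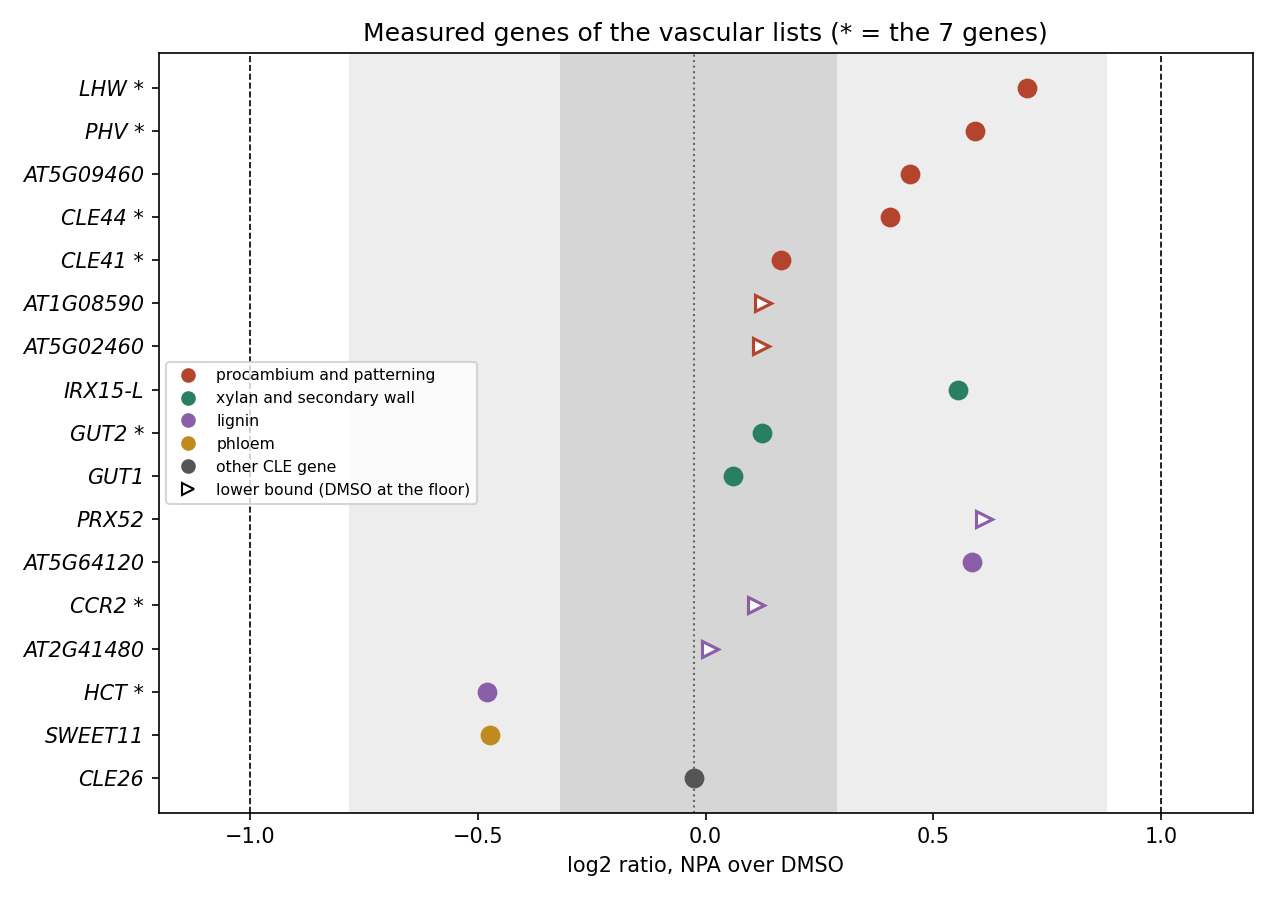
Log2 ratio of NPA over DMSO for every measured gene of the vascular lists and the measured CLE gene outside them, with the 7 genes starred; open triangles are lower bounds with DMSO at the floor. Dark and light grey bands hold the middle 50% and the range from the 5th to the 95th percentile of all measured genes, the dotted line is their median of -0.03, and no gene reaches the dashed 2-fold lines.

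As deposited, every measured marker of green shoot, root and stomata had a lower signal with NPA. All 5 named genes of the green shoot list of 10 were measured, RCA among them at 5105 with NPA and 5597 with DMSO, with log2 ratios from -0.77 to -0.13 that were not all below 0 under other scalings. The 500 probe sets nearest to them in signal had a median of -0.31, after lowess centring RCA, LHCB4.1 and LHCB4.2 were at 0.24, 0.10 and 0.14, and after quantile normalization RCA and LHCB4.2 were at 0.05 and 0.06. Of 7 root genes 3 were named. PYK10 had 425 with NPA and 609 with DMSO. EXPA18 had 28.3 with NPA, barely above the floor of 27.9, and 36.8 with DMSO. EXPA7 was under the floor on both arrays. The stomatal genes FMA and STOMAGEN had log2 ratios of -0.44 and -0.79, and 0 of 5 flower genes were named. Whether the shares of these tissues bear on the 7 genes was not tested. The ratio of 3' to 5' signal, a sign of RNA quality, was 1.66 with NPA and 2.21 with DMSO in an actin probe set pair and 0.803 with NPA and 0.893 with DMSO in a GAPDH pair. An older actin pair gave 6.32 with NPA and 3.02 with DMSO.

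The sign of each ratio was also read under other scalings, floors and probe set rules. In each of 10 alternatives LHW, PHV, CLE41, CLE44 and GUT2 stayed above 0 and HCT below it. CCR2 was measured in 9 of them, always above 0. Where its DMSO signal was set to a floor, a ratio below 0 was hardly possible, so those signs are no check of CCR2. LHW ranged from 0.52 to 0.71, PHV from 0.47 to 0.60, CLE44 from 0.30 to 0.41, CLE41 from 0.10 to 0.17 and GUT2 from 0.05 to 0.13. HCT ranged from -0.48 to -0.25, and CCR2 from 0.11 to 2.67, the last without any floor. Several of these alternatives cannot move a gene with 1 probe set and signals far above the floor, so stable values say nothing of the spread between plants.

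**Figure D4:**
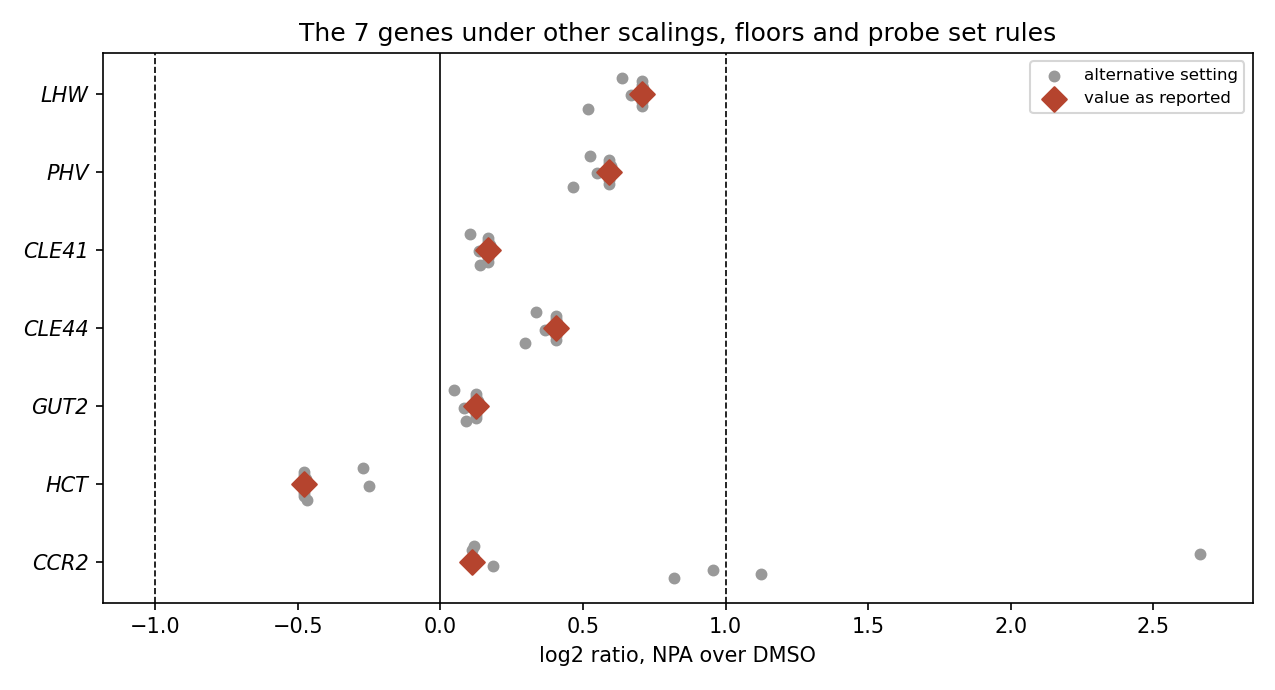
Log2 ratio of NPA over DMSO for each of the 7 genes as reported (diamond) and under the alternative scalings, floors and probe set rules (grey points, 10 per gene and 9 for CCR2); dashed lines mark 2-fold. CCR2 alone crosses a 2-fold line, with a lower floor and without one.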

How the data were processed

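The authors deposited 1 linear signal intensity per probe set and array; per the submitters' processing notes MAS5 and GCOS made these values, in versions not given in the sources used here. The trimmed mean was 100.0 on both arrays. Of 22810 probe sets, 64 controls were set aside. Genes were named through the array's annotation from probe sets with exactly 1 gene, and loci and other names come from the TAIR10.1 gene table. Signals under an array's 40th percentile were set to it, and log2(NPA/DMSO) was taken. Where 1 of the arrays was at its floor, the fold is a lower bound. Called means at least 2-fold. No test was possible with 1 array per group, whose number limits precision.

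The named genes are the 7, the measured genes of the lists and markers, and CLE, GUT and CCR genes by symbol. The members and lists were chosen with earlier results of these data known. For AT5G09460, AT5G02460 and AT5G50010 the array annotation and the gene table give no gene symbol beyond the locus.

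Alternatives were median, quantile and lowess scaling (span 0.3), other floors, none, or the floor added to both signals, other probe set rules, and rules of 1.5-fold and 3-fold. The steps were tested on simulated data with changes planted only in bright probe sets. The noise had the SD of the spike-ins, 0.21, against 0.56 among the log2 ratios of probe sets above both floors. That test therefore does not cover signals near the floor or the wider spread of these arrays. Python 3.11.15, numpy 2.4.6, pandas 2.3.3, statsmodels 0.14.6 and matplotlib 3.10.9 were used.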

Additional observations from a re-analysis of the deposited data

How the results depend on the processing

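No paired analysis was possible because each group has a single array, and for the same reason no array was left out in turn. The floor and the size rule moved the counts, and the 3 scalings and 2 probe set rules moved none of them by over 1.5 times. Of all genes measured, 291 passed 2-fold in the higher direction with NPA and 165 in the lower. These counts were 1102 and 1340 without a floor, 174 and 71 when the floor was added to each signal, 869 and 822 at 1.5-fold, and 75 and 18 at 3-fold. With a floor at the 25th percentile 297 genes were in the lower count, and 351 when the highest bacterial control set it. Of the 7 genes, 0 were at least 2-fold higher, 1, CCR2, without a floor or with one at the 25th percentile, and 2 at 1.5-fold. The procambium and patterning list had 0 higher genes, 1 without a floor and 2 at 1.5-fold, and the xylan and secondary wall list 0, and 1 without a floor. The lignin list had 0 higher genes, 2 without a floor or with one at the 25th percentile, and 1 with the bacterial floor and at 1.5-fold. Its median of 0.11 became 0.58 with the bacterial floor or one at the 25th percentile, and -0.48 with one at the 55th, where HCT was the 1 measured gene left. The median of the 7 genes, 0.17, was 0.40 without a floor, with the bacterial floor or with one at the 25th percentile, and the xylan and secondary wall median of 0.12 ran up to 0.34. Higher or lower floors change which genes are measured, and other causes were not tested. Other floors moved the log2 ratios of CCR2, PRX52 and AT1G08590 by at least the SD of the 500 probe sets nearest in signal. Where still measured, no other named gene moved that far. Signals near the floor also limit AT2G41480, AT5G02460 and EXPA18.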
